A study of Homo sapiens with 12 samples.

Results

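The genes described here are 10 enzymes that make serine, pass its carbon on through folate, or make asparagine: PHGDH, PSAT1, PSPH, SHMT1, SHMT2, MTHFD1, MTHFD2, MTHFD1L, ALDH1L2 and ASNS. They were taken by name, with earlier results of these data known, from 19775 genes that had at least 1 probe set of their own on the array. The shares of all genes given beside their counts are therefore a background and not a test of the set. Expression was measured on Affymetrix arrays in HK-2, a human cell line made by immortalizing tubule cells of a normal kidney, which was grown in all groups with EGF, hydrocortisone, insulin, transferrin and selenite and treated close to confluence. The groups were Fk at 12 h, its control vehicle at 12 h, Fk at 48 h and its control vehicle at 48 h, with 3 arrays each and 12 in all. The labels do not expand the name Fk, and a dose is not given here. They name the 3 arrays per group as biological replicates of this single line, without saying what separated them, so p-values measure the spread between these arrays, which may be partly technical.

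Serine is made from the glycolytic intermediate 3-phosphoglycerate by PHGDH, PSAT1 and PSPH acting in turn. The hydroxymethyltransferases then move a carbon from serine to tetrahydrofolate, SHMT1 in the cytosol and SHMT2 in mitochondria, and the folate-bound carbon is used to build purines and thymidylate. In mitochondria MTHFD2, MTHFD1L and ALDH1L2 carry the unit on to formate or carbon dioxide, whereas the trifunctional MTHFD1 works with it in the cytosol. ASNS makes asparagine from aspartate and glutamine. Many of these genes are known targets of ATF4, a transcription factor whose translation rises when amino acids run short.

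ATF4 binds such genes at a composite C/EBP-ATF element, of which that of the ASNS promoter is the textbook case. RefSeq promoter windows (GRCh38.p14, 250 bases before to 50 after a start site) were matched by symbol for 7 of the 10 genes, and PSPH, SHMT2 and ALDH1L2 had none. The core TGATGNAA was searched on both strands. It was found in ASNS and MTHFD1L, and among all 35116 windows 3.62% hold it. The windows of PHGDH, PSAT1, SHMT1, MTHFD1 and MTHFD2 do not contain these letters. One matching window of each gene is shown because the element is a known link between these enzymes and amino acid supply, with the matches in capitals. In ASNS (chr7:97872359-97872658, minus strand), where 1 of 2 windows holds it, the core starts 68 bases before the start site, and the second capital run, GTTACA, is the known neighbouring element, which 6.66% of all windows hold. In MTHFD1L (chr6:150866236-150866535, plus strand) the core starts 129 bases before this start site, and 3 of its 4 windows hold it. These windows overlap, and the 3 matches are the same stretch of the genome. It starts 90 bases before another of these start sites and at base 25 after the remaining one. A match is a description of the letters only.
ASNS: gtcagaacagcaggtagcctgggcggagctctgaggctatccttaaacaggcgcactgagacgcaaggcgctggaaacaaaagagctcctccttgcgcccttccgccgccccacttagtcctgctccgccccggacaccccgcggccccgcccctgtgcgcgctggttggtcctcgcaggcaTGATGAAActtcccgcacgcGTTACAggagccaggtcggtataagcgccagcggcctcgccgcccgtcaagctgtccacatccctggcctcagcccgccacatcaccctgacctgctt
MTHFD1L: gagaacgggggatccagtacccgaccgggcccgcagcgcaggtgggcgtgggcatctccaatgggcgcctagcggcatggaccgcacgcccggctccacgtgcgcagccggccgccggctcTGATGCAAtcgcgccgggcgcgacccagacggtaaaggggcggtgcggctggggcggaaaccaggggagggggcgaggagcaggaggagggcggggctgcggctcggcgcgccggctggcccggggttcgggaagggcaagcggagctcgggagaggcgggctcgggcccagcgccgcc

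All values are log2 GCRMA signals, and levels are compared only within a probe set. Each gene was read from its brightest probe set among those annotated to it alone, and tested where that probe set reached a log2 signal of 4 on at least 3 arrays, which left 10784 genes. Array medians ran from 2.85 to 2.94. The 10 genes have 27 probe sets, of which 5 are annotated to other genes too. By this rule 8 of the 10 were tested. SHMT1 and MTHFD1L were not, since their own probe sets ran from 2.57 to 2.70 and from 2.15 to 2.61, but the probe sets they share with other gene symbols were bright and are described further on. Among the 8, only ALDH1L2 on control replicate 2 at 12 h (3.96) lay under 4. As a check of the label, all 7 epithelial markers were above the level for testing, and so was PAX8, but the other 8 proximal tubule markers measured, among them LRP2, CUBN and AQP1, were not, and neither were 3 leukocyte markers. Of 4 endothelial markers 1 reached the level and of 5 fibroblast markers 3 did, DCN, LUM and COL1A1. The fibroblast markers' summed log2 signals ran from 32.4 to 33.1 with Fk and from 30.7 to 32.6 in controls at 12 h, and from 29.6 to 32.3 with Fk and from 29.3 to 32.5 in controls at 48 h. Their part in the results was not tested. Fk replicate 3 at 12 h stood apart, with correlations of 0.942 and 0.946 to its group against 0.994 between the other two and a ribosomal RNA control signal of 14.38 against at most 10.29 elsewhere, so results at 12 h are also given without it.

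The changes that passed the test came with time in culture. In control cultures 6 of the 8 tested genes rose between the times, PHGDH, PSPH, SHMT2, MTHFD2, ALDH1L2 and ASNS, by log2 values from 1.21 to 3.64, and 0 fell (limma, adjusted p from 0.000929 to 0.0109). Of all genes tested 10.6% rose and 10.9% fell, 21.5% in all. A positive sign was seen in 7 of the 8 and in 51.5% of all genes, and the median log2 fold change was 1.34 over the 8 and 0.01 over all genes. The Fk cultures at 12 h had higher signals than their controls for 7 of the 8, by a median of 0.54 against 0.01 for all genes, but none passed the test. At 48 h the median Fk difference of the 8 was 0.09. In bulk RNA, a change in the number of cells of one kind and a change in RNA per cell cannot be told apart.

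**Figure D1:**
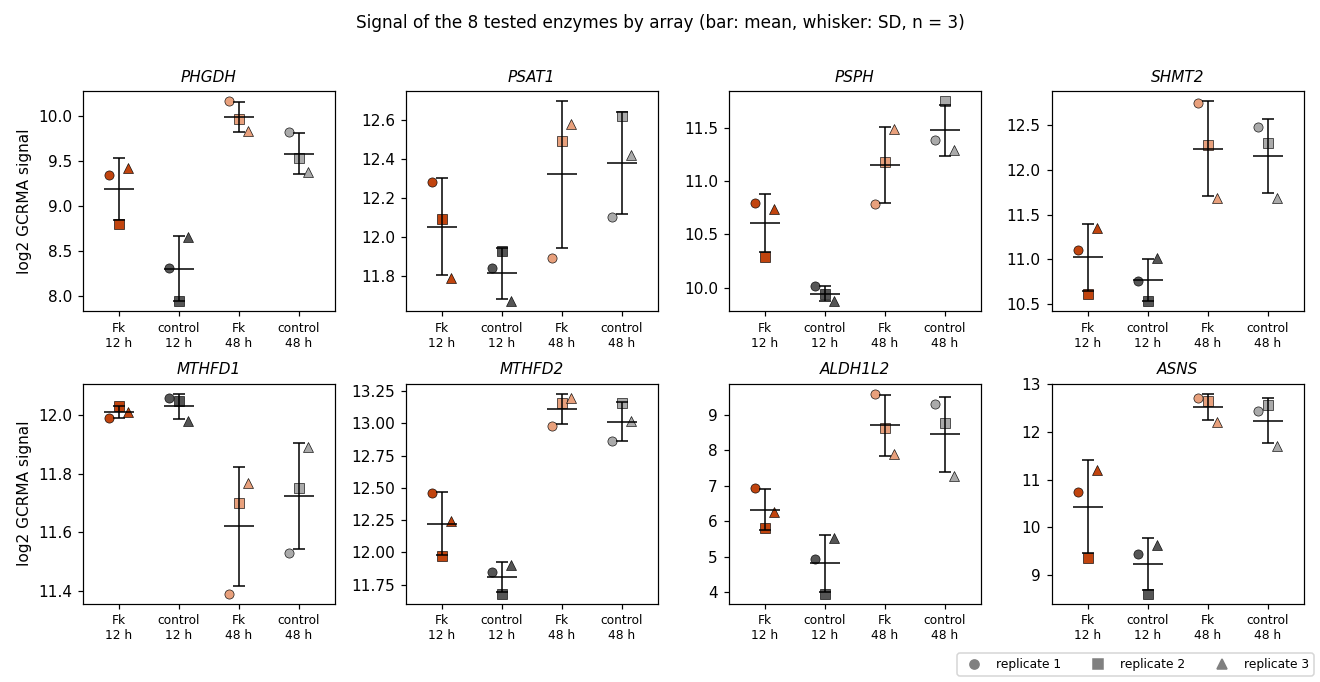
Log2 GCRMA signal (vertical axes) of the 8 tested enzymes on each of the 12 arrays, by group (horizontal axes); symbols mark replicates, bars the mean and whiskers the SD of 3 arrays. ASNS averaged 10.43 in Fk and 9.23 in control cultures at 12 h, and 12.52 and 12.23 at 48 h, while MTHFD1 was lower at 48 h than at 12 h in both.

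Among the serine synthesis enzymes, PHGDH, which oxidizes 3-phosphoglycerate as the first step, read 9.35, 8.80 and 9.43 in Fk cultures at 12 h, against 8.31, 7.94 and 8.66 in controls. The 48 h arrays gave 10.17, 9.97 and 9.84 with Fk, against 9.83, 9.54 and 9.38 in controls. The Fk arrays lay above the control arrays at both times, at 48 h only just, and it was the only one of the 8 without overlap at 48 h. The log2 difference at 12 h was 0.89 ± 0.22 (SE, n = 3 per group), with 95% confidence limits of 0.40 and 1.38 (limma adjusted p = 0.575), and 0.77 without Fk replicate 3. The 48 h difference was 0.41 ± 0.22 (interval -0.08 to 0.90, adjusted p = 1). Averaged over both times the difference was 0.65 ± 0.16 (interval 0.30 to 1.00, unadjusted p = 0.00178, adjusted p = 0.296). That was the smallest p of the 8 genes in this comparison, in which 0.00927% of all genes passed. There, 7 of the 8 were positive, against 54.1% of all genes, and 3 (PHGDH, MTHFD2 and ASNS) had an unadjusted p under 0.05, against 7.94%. In controls PHGDH rose by 1.28 ± 0.22 between 12 h and 48 h (limma adjusted p = 0.00426), and its control arrays at 48 h overlapped the Fk arrays at 12 h.

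PSPH, the phosphatase that releases serine, read 10.79, 10.29 and 10.74 with Fk at 12 h, against 10.01, 9.94 and 9.87 in controls. After 48 h the values were 10.78, 11.18 and 11.49 with Fk, against 11.39, 11.75 and 11.29 in controls. So the Fk arrays were all higher at 12 h, and at 48 h the groups overlapped with the lower mean in Fk. The difference was 0.67 ± 0.20 at 12 h (interval 0.22 to 1.12, limma adjusted p = 0.654), 0.60 without Fk replicate 3, and -0.33 ± 0.20 at 48 h (interval -0.78 to 0.12, adjusted p = 1). The change of the Fk effect, 48 h minus 12 h, was -0.99 ± 0.29 (interval -1.63 to -0.36) and did not pass (limma unadjusted p = 0.0057, adjusted p = 0.996). PSPH was the 1 gene of the 8 with an unadjusted p under 0.05 there, where 3.31% of all genes had one. A second PSPH probe set gave 0.62 at 12 h, where its groups overlapped, -0.13 at 48 h and -0.75 for that change. In controls PSPH rose by 1.54 ± 0.20 with time (adjusted p = 0.00154), so that the range over all 12 arrays ran from 9.87 to 11.75.

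PSAT1, the aminotransferase between them, differed less between groups. It read 12.28, 12.09 and 11.79 with Fk at 12 h, against 11.84, 11.93 and 11.67 in controls. Its 48 h values were 11.89, 12.49 and 12.58 with Fk, against 12.10, 12.62 and 12.42 in controls. The groups overlapped at both times, with differences of 0.24 ± 0.21 (interval -0.23 to 0.70) and -0.06 ± 0.21 (interval -0.52 to 0.40). The first was 0.37 without Fk replicate 3. The control difference between the times was 0.56 ± 0.21 (interval 0.10 to 1.03) and did not pass (limma adjusted p = 0.0792), although the control arrays at 48 h all lay above those at 12 h. It was 0.45 and 0.70 without control replicates 2 and 1 at 48 h. Its other probe set gave 0.28, 0.06 and 0.50 for the same 3 comparisons. There the Fk arrays at 12 h, at 11.14, 10.67 and 10.70, all lay above the controls, at 10.54, 10.53 and 10.59.

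ASNS, which makes asparagine, ranged from 8.61 to 12.71 over the arrays. With Fk at 12 h it read 10.74, 9.35 and 11.21, against 9.44, 8.61 and 9.64 in controls. By 48 h ASNS stood at 12.71, 12.65 and 12.20 with Fk, against 12.43, 12.57 and 11.70 in controls. Fk replicate 2 at 12 h lay below control replicates 1 and 3 of that time, so the groups overlapped there. The difference at 12 h was 1.20 ± 0.45 (interval 0.21 to 2.20, limma adjusted p = 0.689), or 2.30-fold. It was 0.81 without Fk replicate 3, on which ASNS lay 1.16 above the mean of the other two, and 1.74 without Fk replicate 2. At 48 h it was 0.29 ± 0.45 (interval -0.71 to 1.28). In controls ASNS rose 8.02-fold with time, a log2 value of 3.00 ± 0.45 (adjusted p = 0.00241). Its other probe set stayed between 2.61 and 2.69 on every array and was not tested. With the mean of both probe sets the log2 values were 1.51 for time and 0.61 for Fk at 12 h.

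ALDH1L2, the mitochondrial dehydrogenase that oxidizes formyl-tetrahydrofolate to carbon dioxide, had the highest log2 fold change with time. It read 6.93, 5.80 and 6.27 with Fk at 12 h, against 4.95, 3.96 and 5.53 in controls. By 48 h ALDH1L2 stood at 9.60, 8.64 and 7.89 with Fk, against 9.32, 8.76 and 7.28 in controls. The groups did not overlap at 12 h and overlapped at 48 h. The Fk difference was 1.52 ± 0.60 at 12 h (interval 0.18 to 2.86, limma adjusted p = 0.71), 1.55 without Fk replicate 3, and 0.25 ± 0.60 at 48 h (interval -1.08 to 1.59). Controls rose by 3.64 ± 0.60, or 12.5-fold (interval 2.30 to 4.98, adjusted p = 0.0036). As the control signals at 12 h lay at 4.81 ± 0.79 (SD), close to the level for testing, the size of this fold is uncertain. So is that of the Fk difference at 12 h, which was 1.10 without control replicate 2 and 1.88 without control replicate 3 of that time. The 2 other ALDH1L2 probe sets, between 2.15 and 3.83 on all arrays, were not tested. With the mean of all 3 probe sets the log2 values were 1.41 for time and 0.52 for Fk at 12 h. ASNS had 1.51 for time on that scale. The scale falls with the number of dim probe sets averaged, so it cannot rank the genes.

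MTHFD2, the mitochondrial dehydrogenase and cyclohydrolase, read 12.46, 11.97 and 12.24 with Fk at 12 h, against 11.85, 11.68 and 11.90 in controls. Its 48 h values were 12.98, 13.16 and 13.20 with Fk, against 12.86, 13.16 and 13.02 in controls. At 12 h the Fk arrays were all higher, by 0.42 ± 0.15 (interval 0.09 to 0.74, limma adjusted p = 0.673) or 0.41 without Fk replicate 3. The difference at 48 h was 0.10 ± 0.15 (interval -0.22 to 0.43). Controls rose by 1.21 ± 0.15 with time, with the smallest adjusted p of the 8 (0.000929). The dimmer MTHFD2 probe set went the other way at 12 h, with a difference of -0.31 ± 0.41, and read 5.43 on Fk replicate 3. Its other Fk arrays of that time read 7.44 and 6.60, on either side of the controls at 6.89, 6.67 and 6.83. With the mean of both probe sets the log2 values were 0.05 for Fk at 12 h and 1.09 for time.

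SHMT2, the mitochondrial serine hydroxymethyltransferase, passed the test for time and not for Fk. It read 11.10, 10.61 and 11.35 with Fk at 12 h, against 10.76, 10.53 and 11.01 in controls. The 48 h arrays gave 12.75, 12.28 and 11.69 with Fk, against 12.48, 12.30 and 11.69 in controls. The groups overlapped at both times, with Fk differences of 0.25 ± 0.30 (interval -0.41 to 0.92) and 0.08 ± 0.30 (interval -0.58 to 0.75), the first being 0.09 without Fk replicate 3. The control rise of 1.39 ± 0.30 passed (limma adjusted p = 0.0109), and the 2 other SHMT2 probe sets gave 1.51 and 1.53.

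MTHFD1, the cytosolic folate enzyme, had the opposite sign in the time course, without passing the test. It read 11.99, 12.03 and 12.01 with Fk at 12 h, against 12.06, 12.05 and 11.98 in controls. After 48 h the values were 11.39, 11.70 and 11.77 with Fk, against 11.53, 11.75 and 11.89 in controls. All arrays at 48 h lay below all arrays at 12 h. The control difference was -0.31 ± 0.13 (interval -0.59 to -0.02) and did not pass (limma adjusted p = 0.117). The Fk differences of -0.02 ± 0.13 and -0.10 ± 0.13 had intervals within 0.40 of 0 at both times, and leaving out Fk replicate 3 at 12 h left the first at -0.02.

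**Figure D2:**
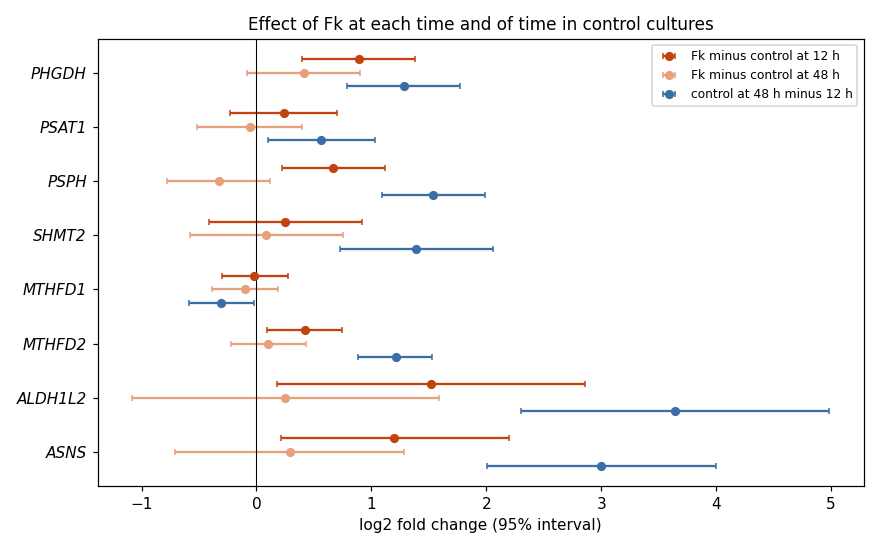
Log2 fold change with its 95% interval (horizontal axis) for each tested enzyme (vertical axis): 12 h Fk minus control, 48 h Fk minus control, and control at 48 h minus control at 12 h. The intervals for time in control cultures exclude 0 for all 8 genes, MTHFD1 on the negative side, and those for Fk exclude 0 for 5 genes at 12 h and for 0 at 48 h; without Fk replicate 3 at 12 h, ALDH1L2 and ASNS no longer had an unadjusted p under 0.05, which left 3.

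Set side by side, the Fk contrast at 12 h and the control time contrast share the same control arrays at 12 h, so their agreement in sign is no separate result. At 12 h, 5 of the 8 genes, PHGDH, PSPH, MTHFD2, ALDH1L2 and ASNS, had an unadjusted p under 0.05, as 6.71% of all genes did. Without Fk replicate 3 there were 3, PHGDH, PSPH and MTHFD2, against 7.86% of all genes. For 4, PHGDH, PSPH, MTHFD2 and ALDH1L2, the Fk arrays all lay above the controls in the brightest probe set, as they did for 9.91% of all genes. This depends on the probe set. In the dimmer probe sets above the level for testing, PSPH and MTHFD2 overlapped at 12 h and PSAT1 did not. A positive sign was seen in 7 of the 8 and in 53.2% of all genes. By limma 0 of the 8, and 0% of all genes, had an adjusted p under 0.05. At 48 h 0 of the 8 had an unadjusted p under 0.05, against 5.18% of all genes. PHGDH was the 1 gene without overlap, against 6.14% of all genes with higher Fk arrays, and 5 of the 8 were positive, against 53.8%. The Fk effect was smaller or more negative at 48 h than at 12 h in all 8 genes, with a median difference of -0.40, while 51.6% of all genes had a positive one, and 0 passed that test, where 0% of all genes did. In the control time course the arrays did not overlap for any of the 8, with 7 higher at 48 h, against 25.1% of all genes, and 1 lower, against 24.9%.

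The order of the group means differed among the enzymes. For SHMT2, MTHFD2, ALDH1L2 and ASNS it was Fk at 48 h, control at 48 h, Fk at 12 h and control at 12 h, from high to low. Of these, the arrays at 48 h overlapped between Fk and control in every gene, and those at 12 h overlapped for SHMT2 and ASNS. PHGDH had the same order, with overlap only between control at 48 h and Fk at 12 h. PSPH and PSAT1 were highest in controls at 48 h, and MTHFD1 was highest in controls at 12 h.

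The replicates of a group were not evenly spread either. In both 12 h groups replicate 2 gave the lowest PHGDH, SHMT2, MTHFD2, ALDH1L2 and ASNS signals, with ASNS deviating from its group mean by -1.08 in Fk and by -0.62 in control. In both 48 h groups replicate 3 gave the lowest PHGDH, SHMT2, ALDH1L2 and ASNS signals and the highest MTHFD1 signal, while replicate 1 gave the lowest MTHFD1 and PSAT1. ALDH1L2 lay 0.89 above its group mean on Fk replicate 1 at 48 h and -0.82 from it on Fk replicate 3, and the same replicates of the controls deviated by 0.87 and -1.17. The SDs of ALDH1L2 within a group at 48 h, 0.86 in Fk and 1.05 in control, exceeded its Fk difference of 0.25. On replicates 1 and 3 Fk and control deviated in the same direction, so these SDs are not the spread of the Fk difference by replicate. Without Fk replicate 1 at 48 h, but with control replicate 1 kept, the Fk difference of ALDH1L2 was -0.19. That of SHMT2 was then -0.17.

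SHMT1 and MTHFD1L are visible only in probe sets that the annotation gives to more than 1 gene, so their signal cannot be assigned to one of them. The brighter probe set annotated to SHMT1 and the microRNA gene MIR6778 read 10.40, 10.62 and 10.86 with Fk at 48 h, against 10.98, 10.94 and 11.40 in controls. A second with the same annotation read 9.40, 9.60 and 9.63 with Fk, against 9.98, 9.95 and 10.23 in controls. All Fk arrays were lower in both, as they were for 4.03% of the 21899 probe sets in a fit over all of them. The differences at 48 h were -0.48 ± 0.21 (interval -0.96 to -0.01) and -0.51 ± 0.19 (interval -0.94 to -0.09), and neither passed (limma adjusted p = 0.959 and 0.869), where 0.00457% of all probe sets did. At 12 h they were -0.13 ± 0.21 and -0.01 ± 0.19, with overlap.

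The brighter probe set annotated to MTHFD1L, the mitochondrial enzyme that releases formate, and to LOC101928195 and LOC100996643 read 10.73, 10.57 and 10.47 with Fk at 48 h, against 10.31, 10.14 and 9.96 in controls. Its 12 h values were 9.78, 9.63 and 9.80 with Fk, against 9.80, 9.83 and 9.75 in controls. All Fk arrays were higher at 48 h, as they were for 6.42% of probe sets. The Fk difference was 0.46 ± 0.12 at 48 h (interval 0.18 to 0.73, limma adjusted p = 0.627) and -0.06 ± 0.12 at 12 h (interval -0.33 to 0.22). The change between the times was 0.52 ± 0.17 (interval 0.13 to 0.90, unadjusted p = 0.0139, limma adjusted p = 0.996), opposite in sign to that of the 8 tested genes. The other probe set of the same annotation gave 0.25 ± 0.21 at 48 h with overlap. The probe set that PHGDH shares with MZT2A and MZT2B stayed between 11.81 and 12.20 and gave -0.07 at 12 h and -0.05 at 48 h.

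**Figure D3:**
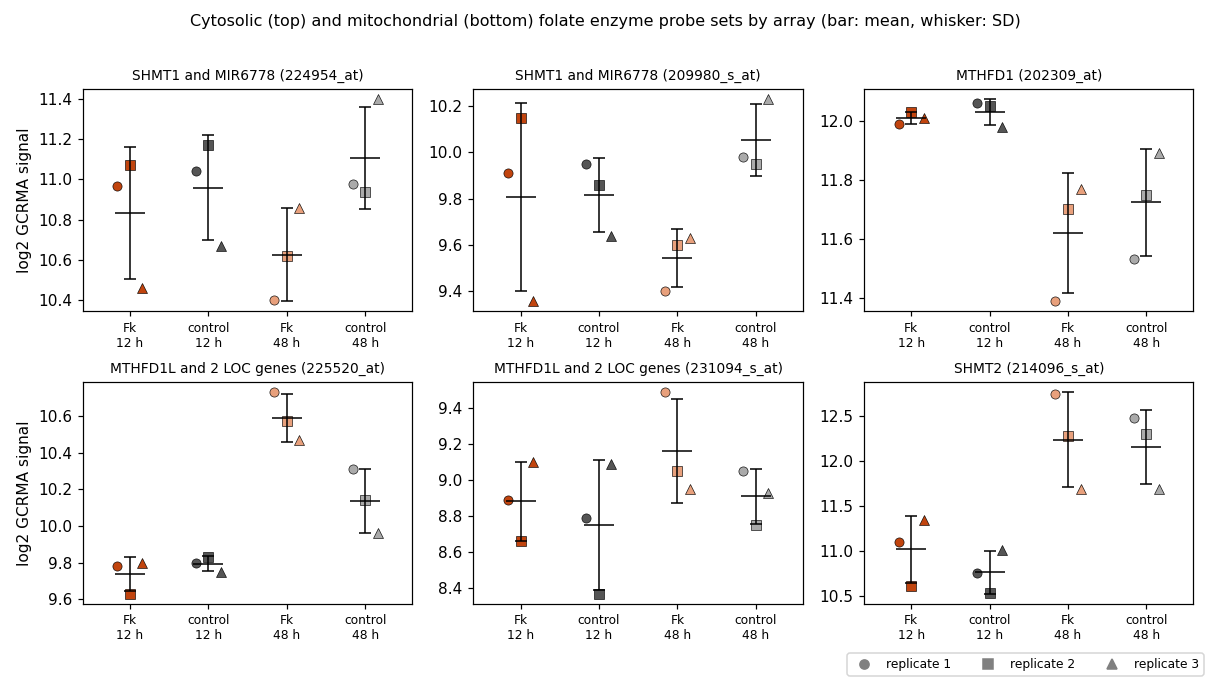
Log2 GCRMA signal (vertical axes) on each array, by group (horizontal axes), for cytosolic folate enzyme probe sets in the top row and mitochondrial ones in the bottom row; bars are means and whiskers SDs of 3 arrays. At 48 h both probe sets annotated to SHMT1 and MIR6778 were lower on all Fk arrays than on the control arrays, and the brighter one annotated to MTHFD1L and LOC symbols was higher.

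The mitochondrial enzymes were set against the cytosolic ones on each array, as the mean log2 signal of SHMT2, MTHFD2, MTHFD1L and ALDH1L2 minus that of SHMT1 and MTHFD1. Only changes of this difference between groups carry meaning. SHMT1 and MTHFD1L are at background in their own probe sets and hardly change. They still count in the means, so they lower the weight of the other enzymes, and the cytosolic change is that of MTHFD1 at reduced weight. The difference was 0.71 ± 0.28 with Fk and 0.16 ± 0.30 in controls at 12 h (SD, n = 3 each), with Fk arrays at 0.96, 0.41 and 0.77, against 0.18, -0.15 and 0.45. At 48 h it was 2.02 ± 0.43 with Fk and 1.87 ± 0.44 in controls. Fk replicate 2 at 12 h lay under control replicate 3, so the 12 h groups overlapped, as did those at 48 h. The change was 0.56 for Fk at 12 h (0.53 without Fk replicate 3), 0.15 for Fk at 48 h and 1.72 for control cultures at 48 h against 12 h. The last is larger than the spread within any group.

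Using SHMT2, MTHFD2 and ALDH1L2 minus MTHFD1 alone, a choice made after the values were seen, these changes were 0.75, 0.25 and 2.39. With the shared probe sets for SHMT1 and MTHFD1L they were 0.61, 0.52 and 1.72. ALDH1L2 gave a large part of the 12 h change, which was 0.23 without it. By single pairs, MTHFD2 minus MTHFD1 moved by 0.43, 0.20 and 1.51, and SHMT2 minus the brighter SHMT1 and MIR6778 probe set by 0.38, 0.56 and 1.25. The brighter shared MTHFD1L probe set minus MTHFD1 moved by -0.04, 0.56 and 0.64.

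**Figure D4:**
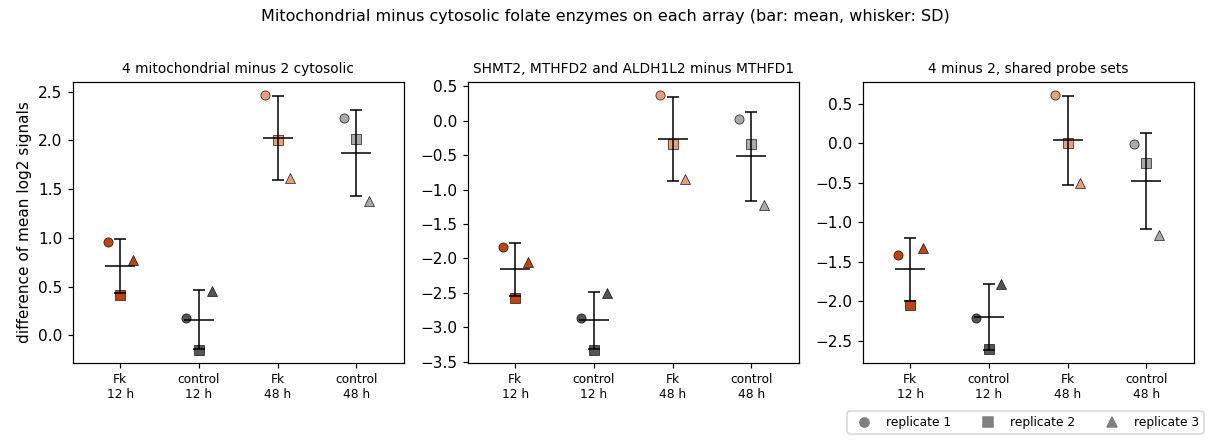
Mean log2 signal of mitochondrial minus cytosolic folate enzymes (vertical axes) on each array, by group (horizontal axes), with all 6 enzymes, with those above the level for testing, and with the shared probe sets of SHMT1 and MTHFD1L; bars are means and whiskers SDs. In the first panel the Fk and control means are 0.71 and 0.16 at 12 h and 2.02 and 1.87 at 48 h.

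The other folate and one-carbon genes had medians below 0 at 12 h and with time, where those of the 8 enzymes were above 0. Of 18 tested from a list of 26, 7 had a positive Fk difference at 12 h, with a median of -0.10, and 0 passed. In the control time course 1 rose and 4 fell, with a median of -0.24, against 10.6% and 10.9% of all genes. SLC19A1, the reduced folate carrier of the plasma membrane, fell by 1.09 on the log2 scale (limma adjusted p = 0.000614). At 12 h it read 7.32, 7.62 and 7.60 with Fk, against 8.02, 7.88 and 8.07 in controls, a difference of -0.48 ± 0.12 (adjusted p = 0.575). GLDC of the glycine cleavage system fell by 1.44 with time (adjusted p = 0.0185), and SLC46A1, the proton-coupled folate transporter, rose by 0.84 (adjusted p = 0.0287). Both calls depend on the setting, since without single control arrays the adjusted p reached 0.0749 for GLDC and 0.105 for SLC46A1, and with no filter 0 of the list rose and 2 fell.

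MTHFD2L, the mitochondrial relative of MTHFD2, fell by 0.60 with time in controls (limma adjusted p = 0.0109). At 48 h it read 7.11, 7.14 and 7.15 with Fk, against 7.68, 7.65 and 7.46 in controls, all lower, with a difference of -0.46 ± 0.13 (adjusted p = 0.65). The mean of all MTHFD2L probe sets gave 0.11 for time and 0.01 for Fk at 48 h, so its direction depends on the probe set. In purine synthesis GART and ATIC take up the folate-bound carbon. Of 10 genes of that pathway 3 fell with time and 0 rose, against 10.9% and 10.6% of all genes. PFAS fell by 1.08, IMPDH1 by 0.98 and PAICS by 0.47 on the log2 scale (limma adjusted p from 0.00394 to 0.0172). The PAICS call was lost without any 1 of the control arrays at 12 h or without control replicate 1 at 48 h (adjusted p up to 0.065). The median Fk difference of the 10 purine genes was -0.14 at 12 h (3 positive) and 0.09 at 48 h (8 positive), with 0 called at either time. GMPS had the smallest p of them at both times, with 0.46 ± 0.12 and 0.31 ± 0.12 (limma adjusted p = 0.648 and 0.904). With the mean of its probe sets both differences were negative. Proliferation genes fell in 8 of 13 cases with time and 0 rose, against 10.9% and 10.6% of all genes. RRM2 fell by 2.09 and MKI67 by 1.40 (limma adjusted p = 0.0112 and 0.0203). The count of 8 fell to 1, RRM2, with no filter or without any 1 of the control arrays other than replicate 3 at 48 h. Without that one it was 12. Their part in the time course of the enzymes was not tested.

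Neighbours in amino acid supply and the ATF4 arm held more genes that rose with time than fell. Of 21 tested transporters and enzymes of serine, asparagine or their neighbours, 7 rose and 3 fell in controls (all genes: 10.6% and 10.9%). Without single arrays 5 to 8 rose and 1 to 4 fell, the 1 being reached without control replicates 1 or 3 at 12 h, or 1 or 2 at 48 h. The cystine carrier SLC7A11 rose by 3.91 ± 0.50 and CTH, which makes cysteine from cystathionine, by 4.49 ± 0.64 (limma adjusted p = 0.00124 and 0.00196). At 12 h 0 of them passed for Fk. SLC1A4, a carrier of serine and alanine, had the smallest p there and read 9.73, 8.94 and 9.34 with Fk, against 8.40, 8.22 and 8.12 in controls, all higher by a mean of 1.09 ± 0.27 (adjusted p = 0.575). The glutamine carrier SLC1A5 had 0.56 ± 0.18 (adjusted p = 0.654), and CTH had 1.76 ± 0.64 (adjusted p = 0.673), or 0.87 without Fk replicate 3.

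Of 21 tested ATF4 regulators and effectors, 15 rose and 1 fell with time in controls, against 10.6% and 10.9% of all genes. The median of the 21 was 1.58, and this list too was chosen with earlier results known. Those that rose included the transcription factor gene DDIT3 at 4.86 ± 0.63 and the pseudokinase gene TRIB3 at 1.90 ± 0.18. The leucine sensor gene SESN2 rose by 2.22 ± 0.30 (limma adjusted p of the 3 from 0.000427 to 0.00154). At 12 h 18 of the 21 had a positive Fk difference, against 53.2% of all genes. The median was 0.32, against 0.01 for all genes, and 0 passed. SESN2 had 0.80 ± 0.30 and TRIB3 0.43 ± 0.18 (limma adjusted p = 0.689 and 0.732). Without Fk replicate 3 SESN2 had 0.47 and TRIB3 0.43, the glutathione-degrading enzyme gene CHAC1 1.21 against 2.11 with it, and the stress factor gene ATF3 0.84 against 2.02. At 48 h 10 were positive, against 53.8% of all genes, with a median of -0.01 and 0 called.

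**Figure D5:**
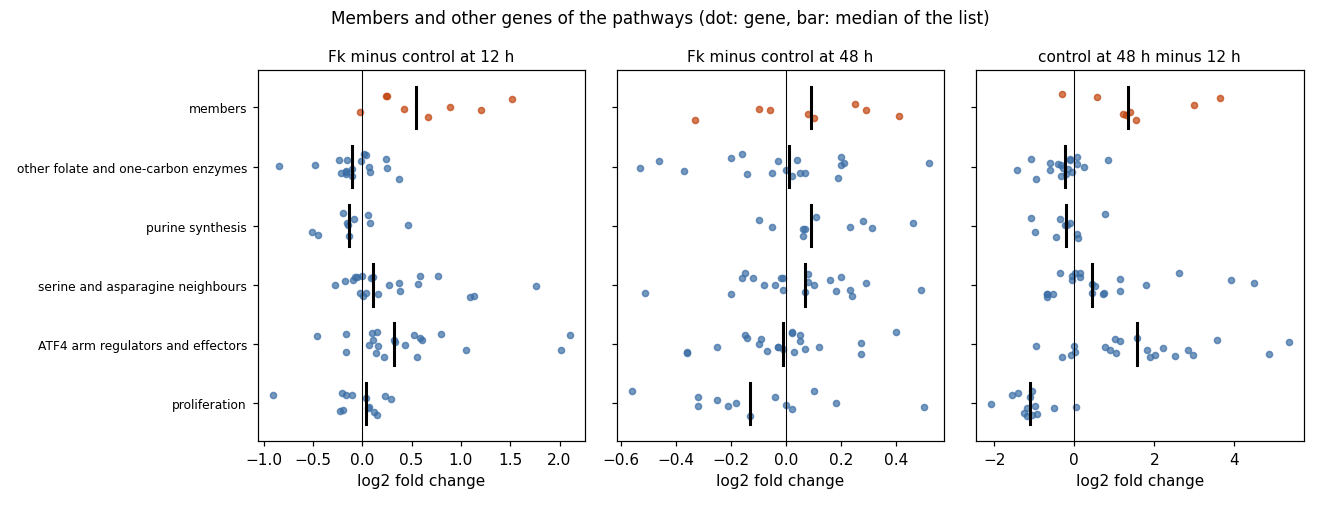
Log2 fold change (horizontal axes) of the 8 tested enzymes and of the genes of 5 other lists (vertical axis), in panels for Fk minus control at each time and for control at 48 h minus 12 h; each dot is a gene and each bar the median of its list. At 12 h the enzymes have a median of 0.54 and the ATF4 list 0.32, and with time in controls 1.34 and 1.58, whereas the folate, purine and proliferation lists have medians of -0.24, -0.21 and -1.10.

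Over the 12 arrays, the genes most like ASNS by Pearson correlation were CEBPG (0.987), a C/EBP family factor that pairs with ATF4, CARS1 (0.986), the cysteine tRNA synthetase, XPOT (0.985), which exports tRNA from the nucleus, EFL1 (0.985), a GTPase of ribosome assembly, and XBP1 (0.979), a factor of the unfolded protein response. For MTHFD2 they were TRIB3 (0.980), SLC7A11 (0.975), XPOT (0.967), TMEM268 (0.967) and INHBE (0.963). For PHGDH they were XPOT (0.960), INPP5B (0.956), ASNS (0.954), C5AR1 (0.950) and PGLS (0.949). XPOT was in all 3 lists. These values describe 12 arrays that share 4 groups and a normalization, and all 3 enzymes were higher in controls at 48 h than at 12 h.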

How the data were processed

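The deposited table holds 54675 probe sets on 12 arrays. Its values are GCRMA signals made by the authors, per the submitters' processing notes, and their range shows a log2 scale. Whether these arrays were normalized together is not given in the sources used here. Of the probe sets, 41097 carry 1 gene symbol, 1801 several and 11777 none in the platform annotation. Group means were fitted to the 12 arrays together with limma 3.58.1 (R 4.3.3) and tested two-sided after eBayes moderation, which added 2.44 prior to the 8 residual degrees of freedom. Each p-value was adjusted by Benjamini-Hochberg across the 10784 genes, and 0.05 was the threshold. Intervals are 95% confidence intervals. Precision is limited by the number of arrays. The named genes are the 10 members, from each other list up to 4 genes with the smallest p in a comparison, and the 5 most correlated genes of PHGDH, ASNS and MTHFD2. The members and lists were chosen with earlier results of these data known. The fit was tested on simulated data. Figures were drawn in Python 3.11.15 (pandas 2.3.3, matplotlib 3.10.9). Alternatives changed the filter, probe sets, normalization, moderation, array weights, replicate block, arrays in the fit, or left out 1 array.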

Additional observations from a re-analysis of the deposited data

How the results depend on the processing

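In control cultures, the 6 calls of the time course held under every alternative that tested the gene. The mean of probe sets, which includes probe sets at background, lowered ALDH1L2, ASNS, PSPH and MTHFD2 to less than their values without single arrays. Their log2 values for time were then 1.41, 1.51, 1.01 and 1.09. Without single arrays 6 to 7 members passed; PSAT1 passed without Fk replicate 1 at 48 h (adjusted p = 0.04). With the control groups fitted alone 7 passed, PSAT1 included. With array weights 8 passed, of which MTHFD1 fell (limma adjusted p = 0.0194). For Fk at 12 h, at 48 h and for the difference of these effects, 0 members passed under any alternative, and for the mean effect 1, PHGDH, with array weights (0.60, adjusted p = 0.0376). Replicate numbers are shared by Fk and control, and the labels do not state a pairing. The deviations of same-numbered arrays correlated at 0.04, 0.27 and 0.16 at 12 h and at 0.80, -0.03 and 0.61 at 48 h. Replicates 1 and 3 at 48 h thus shared variation between Fk and control. The main fit did not take the arrays as pairs, so its standard errors and the overlaps between groups leave this out. A replicate block within time gave PHGDH 0.89 (adjusted p = 0.17) and ASNS 1.20 (adjusted p = 0.205) at 12 h and 0 calls among the members; it was not run for the control time course, where a replicate block across both times, added after seeing the data, kept 6. Over all genes, array weights gave 156 calls at 12 h, 94 at 48 h, 527 for the mean effect and 4920 for time, against 0, 0, 1 and 2314. Of the other settings, 4 genes passed at 48 h and 2 for the mean effect with the mean of probe sets. At 48 h 1 passed with no filter, with the stricter filter and with the groups compared alone. With the replicate block within time 1 passed at 12 h. For the mean effect 0 passed with no filter, with trend and robust moderation and with either block. Without single arrays the counts over all genes were 0 to 2 at 12 h, 0 to 1 at 48 h and for the mean effect, and 1063 to 3454 for time. Calls among the other lists were less stable: without single arrays 12 to 16 of the ATF4 list rose with time, 2 to 5 of the other folate genes fell (2 without control replicate 3 at 12 h or replicate 1 at 48 h) and 1 to 12 of the proliferation genes fell. The cause of these shifts was not tested.

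The sign turned with the mean of probe sets for MTHFD1 (0.00), MTHFD2L (0.04) and GMPS (-0.15) at 12 h, for MTHFD2L (0.01) and GMPS (-0.23) at 48 h, for the change of the MTHFD2 effect (0.05) and for MTHFD2L with time (0.11). Without single arrays the Fk difference at 48 h ran from -0.20 to 0.16 for PSAT1, -0.17 to 0.36 for SHMT2, -0.20 to 0.01 for MTHFD1, -0.33 to 0.69 for ALDH1L2, -0.69 to 0.05 for MCM2 and -0.63 to 0.03 for TOP2A, and the change of the effect from -0.42 to 0.10 for SHMT2 and -0.18 to 0.03 for MTHFD1. The mitochondrial minus cytosolic change at 12 h was 0.23 without ALDH1L2, 0.21 with the mean of probe sets, against 0.56. The pairs SHMT2 minus SHMT1 (0.24) and MTHFD1L minus MTHFD1 (0.04) each hold an enzyme at background, so they restate the change of SHMT2 and the negative of that of MTHFD1 and do not compare compartments. With time it was 2.39 over members above the level for testing, 1.02 without ALDH1L2 and 1.07 with the mean of probe sets, against 1.72, and MTHFD1L minus MTHFD1 (0.32) again restates MTHFD1. Without single arrays it ran from 0.40 to 0.71 at 12 h, -0.10 to 0.36 at 48 h and 1.54 to 1.96 with time. Signal over background limits SHMT1 and MTHFD1L, whose own probe sets were not above it.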
